A study of Schizosaccharomyces pombe with 4 samples.

Results

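The 35 genes described here were listed under RNA 3′ end formation and RNA decay in fission yeast (Schizosaccharomyces pombe). By role, 14 were placed with cleavage and polyadenylation, including ptf1, which the deposited description puts in the Mst2 histone acetyltransferase complex. The rest are 3 of transcription termination, 9 of nuclear RNA elimination, 5 of the exosome and 4 of cytoplasmic deadenylation and decay. All 35 were chosen by name, without a filter on their values but with earlier results of these data known. They come from the 5144 mRNA features among the 7015 features of the deposited files, and all 35 were found in all 4 files. RNA was sequenced from cultures in the rich medium YEA that had spent 3 days at 18 °C and were held in mid-log phase. The 4 strains were wild type and deletions of swd22, of ssu72 and of clr4, with 1 library each. Swd22 (a WD repeat protein) and Ssu72 (a phosphatase) belong to CPF, the cleavage and polyadenylation factor, and Clr4 is the enzyme that methylates histone H3 in heterochromatin. The series asks what CPF does in heterochromatin and silencing. Markers, auxotrophies and the number of clones per strain are not given in the labels.

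As background, CPF recognises the signal at the end of a gene, its endonuclease Ysh1 cuts the nascent RNA, and the poly(A) polymerase Pla1 adds the tail. The exonuclease Dhp1 then degrades the RNA still attached to the polymerase, which ends transcription. In the nucleus Mmi1 binds meiotic transcripts that are made out of season and, with Erh1 and the Red1-Mtl1 core (MTREC), hands them to the exosome. This pathway also seeds small islands of heterochromatin. In the cytoplasm the CCR4-NOT complex shortens poly(A) tails before the body of the mRNA is destroyed. The swd22 and ssu72 deletions each remove a part of CPF, to which only some of the 35 genes belong.

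Each library held 15282718 to 24005944 reads over the features. Of the deleted genes, ssu72 kept 16 reads in its own deletion library and had 478 to 740 in the others, and swd22 kept 281 against 651 to 787. The clr4 feature went against its label: the library labelled clr4 deletion had 1645 reads of it, the most of the 5, against 1158 to 1445, a log2 difference of -0.07 from the library labelled wild type. It spans 4492 bases for a coding length of 1473, and how many of these reads come from outside the deleted part was not tested. Each library is therefore called by its label, and every direction drawn from that of clr4 has this limit. The library labelled wild type stands apart from the rest. It held 200 reads of swi6 against 3601 to 4431 in each of the others, and 6 reads of ura4 against 1732 to 3961. Values without it are therefore given as well, against the library labelled clr4 deletion or against a reference library that the files use but do not name (22652585 reads, strain and growth unknown). With 1 library per genotype no difference has a replicate check and none was tested. Differences are log2 ratios of reads on the scale of the deposited ratios, and the intervals given with them are exact 95% counting intervals, which cover counting error only, since the reads carry no molecular identifiers and need not come from separate molecules. In bulk RNA, fewer cells of a kind and less RNA per cell cannot be told apart.

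The 35 genes were well covered and spanned a narrow range. They held between 288 reads (yth1) and 8919 reads (not1) in the library labelled wild type and at least 524 reads in any other library. Levels between genes are given as RPKM, reads per kilobase of feature scaled to the mRNA reads of the library. On this scale the genes had a median of 71.8 in the library labelled wild type, then 68.5 in swd22 deletion, 65.9 in ssu72 deletion, 62.9 in that labelled clr4 deletion and 69.4 in the reference, against medians of 43.8 to 48.6 over all mRNA features. The highest level in the library labelled wild type was that of ccr4 at 120.1, followed by pab2 at 117.6 and seb1 at 116.8, and the lowest were yth1 at 19.98, iss10 at 34.0 and rhn1 at 43.0. Together the genes took 0.688% of the mRNA reads of that library, 0.618% in swd22 deletion, 0.591% in ssu72 deletion, 0.621% in that labelled clr4 deletion and 0.642% in the reference.

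**Figure D1:**
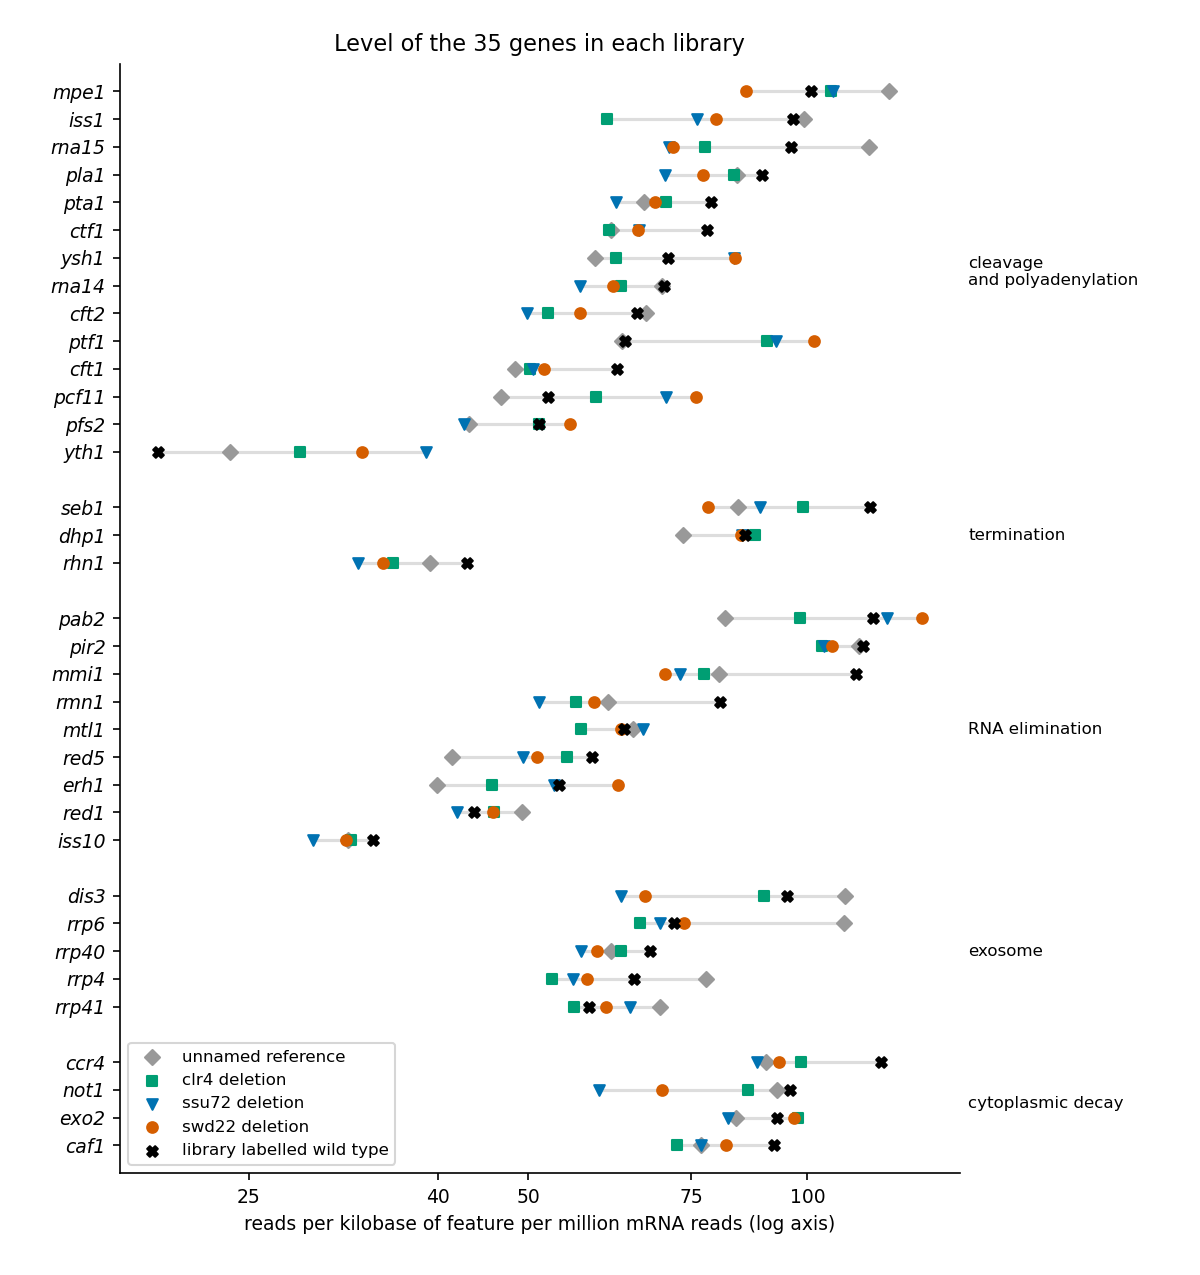
Level of each of the 35 genes in RPKM over mRNA reads (log axis), 1 point per library, ordered by role and by the level in the library labelled wild type. The grey line spans the 5 libraries. The black crosses of the library labelled wild type lie at the right end of many lines, while yth1 is lowest there at 19.98.

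Across the 4 strains the range of a gene, from its lowest to its highest library, had a median of 0.35 on the log2 scale for the 35 genes and 0.42 for all measured mRNA features. A feature was counted as measured where the higher library held at least 10 reads. The range stayed under 1.5-fold for 29 of the 35 (82.9%) and for 69.2% of all features. These sets were not matched for reads. Each of the 35 genes held at least 288 reads, while all features include some near 10 reads, where counting error alone widens the range. The flattest was dhp1 with a range of 0.04, followed by red1 with 0.14 and pir2 with 0.15, and the widest was yth1 with 0.97. The library labelled wild type held the highest value for 21 of the 35 (60.0%, against 36.4% of all features). The ssu72 deletion library held the lowest for 16 (45.7%, against 28.1%) and the library labelled clr4 deletion for 12 (34.3%, against 24.6%).

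Few of the genes passed 1.5-fold against the library labelled wild type. In swd22 deletion 2 were at least that much higher, yth1 and ptf1, against 14.2% of measured mRNA features, and 1 was lower, mmi1, against 5.82%. In ssu72 deletion yth1 was higher, against 13.0% of features, and 3 genes were lower, mmi1, rmn1 and not1, against 8.3%. In the library labelled clr4 deletion none was higher, against 10.6%, and iss1 was lower, against 3.62%. As shares of the 35 these counts came to 5.71% and 2.86%, 2.86% and 8.57%, and 0% and 2.86%, where 1 gene is 2.86%. The shares higher lay below the background in each deletion, but they rest on 2, 1 and 0 genes and share the library labelled wild type. The shares lower rest on 1, 3 and 1 genes, too few to set them apart from the background. The background was not matched to the 35 genes for reads. None of the 35 reached 2-fold in either direction, where the background was 6.48% higher and 1.72% lower for swd22, 6.1% and 2.87% for ssu72, and 5.4% and 1.23% for clr4.

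Most differences were small and negative. The median of the 35 genes was -0.16 in swd22 deletion, where the median of all measured mRNA features was 0.03. It was -0.23 in ssu72 deletion, against -0.02, and -0.15 in the library labelled clr4 deletion, against -0.03. Genes below the library labelled wild type numbered 22 (62.9%, against 46.9% of features), 26 (74.3%, against 52.2%) and 28 (80.0%, against 53.6%) in that order. These comparisons share that library. Without it the shift shrank. Against the library labelled clr4 deletion the median was 0.06 for swd22, where all features also had 0.06, and -0.06 for ssu72, where all features had 0.01. Against the reference a smaller shift remained, with a median of -0.06 for swd22, where all features had 0.06. For ssu72 it was -0.13, where all features had -0.01, and for clr4 -0.05, where all features had -0.01.

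**Figure D2:**
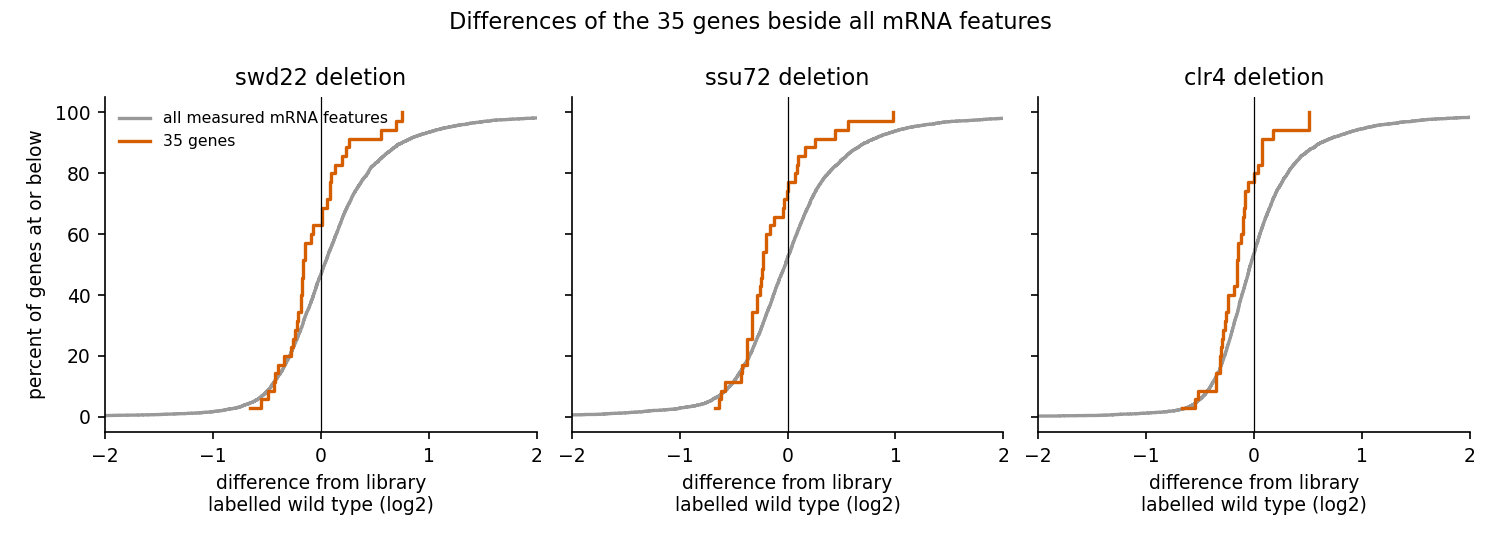
Cumulative percent of the 35 genes (orange) and of all measured mRNA features (grey) at or below each log2 difference from the library labelled wild type, 1 panel per deletion. The orange steps lie left of the grey curve near 0, with medians of -0.16, -0.23 and -0.15, and end before the grey tails do.

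No gene of the 35 passed 1.5-fold between the CPF deletions and the library labelled clr4 deletion. For swd22 the background was 5.38% of features higher and 4.67% lower, and for ssu72 it was 4.17% and 5.91%. The largest of these differences was -0.52, for not1 in ssu72 deletion. Nor did any pass between the ssu72 and swd22 deletions, where 1.39% of features were higher and 2.44% lower in ssu72. There the median of the 35 was -0.09 and that of all features -0.06.

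Among the CPF core genes, yth1 (SPAC227.08c, chromosome I, 510410 to 511433, minus strand), which encodes a zinc finger subunit, differed most. It held 288 reads in the library labelled wild type, then 623 in swd22 deletion, 889 in ssu72 deletion, 612 in that labelled clr4 deletion and 524 in the reference. The library labelled wild type was the lowest of the 5 and both CPF deletions were the highest. The log2 difference from the library labelled wild type was 0.75 (0.55 to 0.96) in swd22, 0.97 (0.78 to 1.17) in ssu72 and 0.51 (0.30 to 0.71) in clr4. Relative to the library labelled clr4 deletion it was 0.24 (0.08 to 0.41) and 0.47 (0.32 to 0.62). The antisense feature on the opposite strand of yth1 spans 884 of its bases and held 136, 107, 197, 250 and 208 reads in the same order of libraries, which is kept wherever 5 values are listed.

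The Fip1 homologue gene iss1 (chromosome I, 753624 to 755676, plus strand) was the only one of the 35 past 1.5-fold between the library labelled clr4 deletion and that labelled wild type. It held 2790 reads in the library labelled wild type, then 3004 in swd22 deletion, 3495 in ssu72 deletion, 2624 in that labelled clr4 deletion and 4362 in the reference. On the log2 scale clr4 deletion lay at -0.67 (-0.75 to -0.59) from the library labelled wild type and at -0.74 (-0.81 to -0.67) from the reference, while swd22 and ssu72 lay above the library labelled clr4 deletion by 0.41 (0.34 to 0.49) and 0.34 (0.27 to 0.42). The library labelled clr4 deletion was the lowest of the 5 relative to its depth. An mRNA feature of the opposite strand, cum1, lies wholly inside iss1 over 706 bases and held 247, 900, 1038, 3752 and 195 reads in the same order. It was thus highest where iss1 was lowest, at 3.35 (3.16 to 3.54) above the library labelled wild type in the library labelled clr4 deletion. The strand setting of the counting is not given in the sources used here, and how far the reads of this pair were kept apart was not tested.

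The endonuclease gene ysh1 and the tail polymerase gene pla1 lay on opposite sides of the other libraries in both CPF deletions. The ysh1 gene (chromosome I, 3620761 to 3623784, minus strand) held 3009, 4639, 5638, 3951 and 3830 reads in the same order, and lay above the library labelled wild type by 0.26 (0.20 to 0.33) in swd22 and 0.25 (0.19 to 0.32) in ssu72. Both also lay above the library labelled clr4 deletion, by 0.45 (0.39 to 0.51) and 0.44 (0.38 to 0.50). The pla1 gene (chromosome II, 928847 to 931046, plus strand) held 2766, 3116, 3456, 3856 and 3959 reads, with differences of -0.19 (-0.26 to -0.12) and -0.33 (-0.40 to -0.26) from the library labelled wild type and of -0.09 (-0.16 to -0.02) and -0.23 (-0.30 to -0.16) from the library labelled clr4 deletion. For ysh1 the libraries of both CPF deletions were above the other 3, and for pla1 they were below them.

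The gene of the WD repeat subunit Pfs2 and that of the ubiquitin ligase Mpe1 separated the CPF deletions from each other. The pfs2 gene held 1453, 2046, 1917, 2171 and 1862 reads and was above the library labelled wild type in swd22 by 0.13 (0.03 to 0.23) and below it in ssu72 at -0.25 (-0.35 to -0.15), so that ssu72 lay at -0.38 (-0.48 to -0.29) from swd22. The mpe1 gene held 3964, 4396, 6654, 6224 and 7327 reads and went the other way, at -0.21 (-0.27 to -0.15) in swd22 and 0.10 (0.04 to 0.15) in ssu72, a difference of 0.31 (0.25 to 0.36) between them. These were the largest differences in each direction between the CPF deletions among the 35 genes. The genes of the other core subunits, pta1 (a symplekin-like scaffold), cft1, cft2 and ctf1, were all lower than the library labelled wild type, with values from -0.38 to -0.16 over the 3 deletions. With the library labelled clr4 deletion as control, they lay between -0.16 and 0.14.

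In cleavage factor I, pcf11 was higher and its partners rna15 and rna14 were not. The pcf11 gene (chromosome I, 2255677 to 2259196, minus strand), whose product binds the tail domain of RNA polymerase II, held 2602, 4901, 5537, 4379 and 3529 reads. It lay above the library labelled wild type by 0.55 (0.48 to 0.62) in swd22, 0.44 (0.37 to 0.51) in ssu72 and 0.17 (0.10 to 0.24) in clr4, and above the library labelled clr4 deletion by 0.38 (0.32 to 0.44) and 0.27 (0.21 to 0.32). Both CPF deletions were the highest of the 5 libraries. Inside pcf11, on the opposite strand, lies the adenylate kinase gene adk1, at 8018, 8576, 9018, 9272 and 11312 reads, which was lower than the library labelled wild type in the same deletions at -0.26, -0.48 and -0.37.

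The RNA-binding subunit gene rna15 held 1919, 1865, 2254, 2315 and 3542 reads and was the lowest of its group in both CPF deletions, at -0.40 (-0.50 to -0.31) and -0.42 (-0.51 to -0.33). The library labelled clr4 deletion stood near them at -0.31 (-0.40 to -0.22). Its whole span is shared with mrpl9 on the opposite strand. The scaffold gene rna14 had 2512, 2884, 3236, 3367 and 3804 reads and lay at -0.16, -0.29 and -0.16 from the library labelled wild type. Against the library labelled clr4 deletion, rna15 lay at -0.09 in swd22 and -0.11 in ssu72, and rna14 lay below it by at most -0.13, in ssu72.

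The member ptf1 (SPAC823.14, chromosome I, 2605757 to 2607414, plus strand) was placed with cleavage and polyadenylation, yet the files describe its product as a predicted phosphatase of the Mst2 histone acetyltransferase complex. It held 1486, 3093, 3434, 3155 and 2244 reads. All 3 deletion libraries were above both the library labelled wild type and the reference, by 0.70 (0.61 to 0.79) in swd22, 0.56 (0.47 to 0.65) in ssu72 and 0.51 (0.42 to 0.60) in clr4 against the former. Relative to the library labelled clr4 deletion swd22 lay at 0.19 (0.12 to 0.26) and ssu72 at 0.05 (-0.02 to 0.12). Without ptf1 the swd22 deletion had 1 gene past 1.5-fold higher, yth1.

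The start of ptf1 and that of dhp1, the exonuclease gene of the next group, each follow a long terminal repeat (LTR), the end of a retrotransposon. Of 5123 windows of 250 bases before an mRNA feature, 172 (3.36%) overlap an annotated LTR, and these are the 2 among the 35 genes. The ptf1 LTR (chromosome I, 2605356 to 2605703) ends 53 bases before the feature, and the dhp1 LTR (chromosome I, 3361148 to 3361496) ends 64 bases before it, each in the orientation of its gene. The windows are printed because the repeat joins the flattest of the 35 genes to one of the widest. They come from the reference assembly ASM294v3, 5′ to 3′ on the strand of the gene, and the capitals mark the longest run that they share, of 33 bases, which occurs 52 times in the chromosomes.
ptf1 (chrI:2605507-2605756, plus strand): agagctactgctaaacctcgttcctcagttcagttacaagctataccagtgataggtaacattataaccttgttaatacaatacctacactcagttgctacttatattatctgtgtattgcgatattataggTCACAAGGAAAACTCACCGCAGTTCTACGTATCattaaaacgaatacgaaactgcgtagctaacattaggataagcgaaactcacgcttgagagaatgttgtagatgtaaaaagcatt
dhp1 (chrI:3361084-3361333, minus strand): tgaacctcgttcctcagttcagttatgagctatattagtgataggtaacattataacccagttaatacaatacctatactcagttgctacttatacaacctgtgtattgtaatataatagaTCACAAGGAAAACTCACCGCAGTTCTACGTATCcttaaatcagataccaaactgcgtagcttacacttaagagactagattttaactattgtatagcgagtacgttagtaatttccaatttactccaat

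Of the termination genes, dhp1 (chromosome I, 3356144 to 3361083, minus strand) was level in all 4 strains. It held 5952, 7680, 9389, 9122 and 7783 reads, and its differences from the library labelled wild type were 0.01 (-0.04 to 0.06) in swd22, 0.01 (-0.04 to 0.05) in ssu72 and 0.04 (-0.01 to 0.08) in clr4. Both ends of each interval were under 0.1 in size on the log2 scale, and the intervals cover counting error only. An mRNA feature of the opposite strand, SPAC26A3.11, lies wholly inside dhp1 over 1528 bases. It held 1153, 1639, 1280, 1569 and 1719 reads and lay at 0.15, -0.50 and -0.14 from the library labelled wild type. How far the reads of this pair were kept apart was not tested. With its LTR upstream, ptf1 spanned 0.70 and dhp1 0.04.

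The Nrd1 family gene seb1 (chromosome I, 959867 to 962227, plus strand) encodes an RNA-binding protein that acts in poly(A) site choice and termination. In every deletion it was lower than in the library labelled wild type. It held 3880, 3383, 4691, 4915 and 4261 reads. The library labelled wild type was the highest and swd22 deletion the lowest, at -0.56 (-0.63 to -0.49), with ssu72 at -0.38 (-0.44 to -0.32) and clr4 at -0.24 (-0.30 to -0.18). With the library labelled clr4 deletion as control, swd22 lay at -0.32 (-0.38 to -0.26) and ssu72 at -0.14 (-0.20 to -0.08). Against the reference only swd22 was lower, at -0.12 (-0.19 to -0.06). There ssu72 lay at 0.06 (-0.003 to 0.12) and clr4 at 0.20 (0.14 to 0.26). The termination factor gene rhn1, which binds the polymerase tail, held 803, 849, 974, 999 and 1116 reads and was lower by like amounts in all 3 deletions, at -0.28, -0.37 and -0.26, with intervals that lay within -0.51 and -0.13. Against the library labelled clr4 deletion it lay at -0.02 (-0.15 to 0.12) and -0.11 (-0.24 to 0.02), both with intervals over 0.

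Of the RNA elimination genes, mmi1 (SPCC736.12c, chromosome III, 337088 to 340150, minus strand) had the lowest difference in the swd22 and clr4 deletions. Its product is the YTH-domain protein that picks meiotic RNAs for destruction. It held 4861 reads in the library labelled wild type, then 3952 in swd22 deletion, 4999 in ssu72 deletion, 4988 in that labelled clr4 deletion and 5270 in the reference. The library labelled wild type was highest relative to depth, and the other 4 lay close together. The differences from it were -0.66 (-0.72 to -0.60), -0.61 (-0.67 to -0.55) and -0.54 (-0.60 to -0.49). Without that library they were small: swd22 and ssu72 lay at -0.12 (-0.18 to -0.06) and -0.07 (-0.13 to -0.01) from the library labelled clr4 deletion and at -0.21 and -0.16 from the reference.

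The 250 bases before mmi1 are printed, since it was past 1.5-fold in both CPF deletions. The window lies in ASM294v3 and overlaps no other mRNA feature. Capitals mark TTTATT, which is the motif AATAAA on the opposite strand.
mmi1 (chrIII:340151-340400, minus strand): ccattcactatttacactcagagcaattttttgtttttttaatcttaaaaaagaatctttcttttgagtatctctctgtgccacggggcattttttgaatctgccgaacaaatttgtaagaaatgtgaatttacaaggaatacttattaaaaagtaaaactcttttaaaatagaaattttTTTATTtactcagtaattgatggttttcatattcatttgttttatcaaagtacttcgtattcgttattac

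The RNA-binding protein gene rmn1 (chromosome II, 489823 to 492221, plus strand), a member of the MTREC network, shared this pattern of a high library labelled wild type. It held 2720, 2596, 2756, 2838 and 3136 reads and lay at -0.43 (-0.51 to -0.35) in swd22, -0.63 (-0.71 to -0.56) in ssu72 and -0.52 (-0.59 to -0.44) in clr4. Relative to the library labelled clr4 deletion it lay at 0.09 (0.01 to 0.17) and -0.11 (-0.19 to -0.04). Its opposite-strand neighbour idh2 overlaps it by 348 bases and was higher in the same libraries, by 0.59, 0.36 and 0.16.

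The MTREC core genes lay nearer the library labelled wild type than mmi1 and rmn1 did. The scaffold gene red1 held 1923, 2631, 2928, 3016 and 3296 reads and lay at 0.09 (0.01 to 0.18) in swd22, -0.05 (-0.13 to 0.04) in ssu72 and 0.07 (-0.01 to 0.15) in clr4. The helicase gene mtl1 held 3004, 3884, 5004, 4034 and 4677 reads and lay at 0.01, 0.08 and -0.15. With the library labelled clr4 deletion as control, red1 lay at 0.02 and -0.11, and mtl1 at 0.16 and 0.24. The Mmi1 partner gene erh1 held 543, 820, 851, 686 and 611 reads and was above the library labelled clr4 deletion by 0.48 (0.33 to 0.62) in swd22 and 0.24 (0.09 to 0.39) in ssu72. It was the gene of the 35 with the largest difference between swd22 and the library labelled clr4 deletion. The bridging factor gene iss10 and the zinc finger genes red5 and pir2 stayed between -0.23 and -0.08 from the library labelled wild type in all 3 deletions, and between -0.14 and 0.06 from the library labelled clr4 deletion in swd22 and ssu72.

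**Figure D3:**
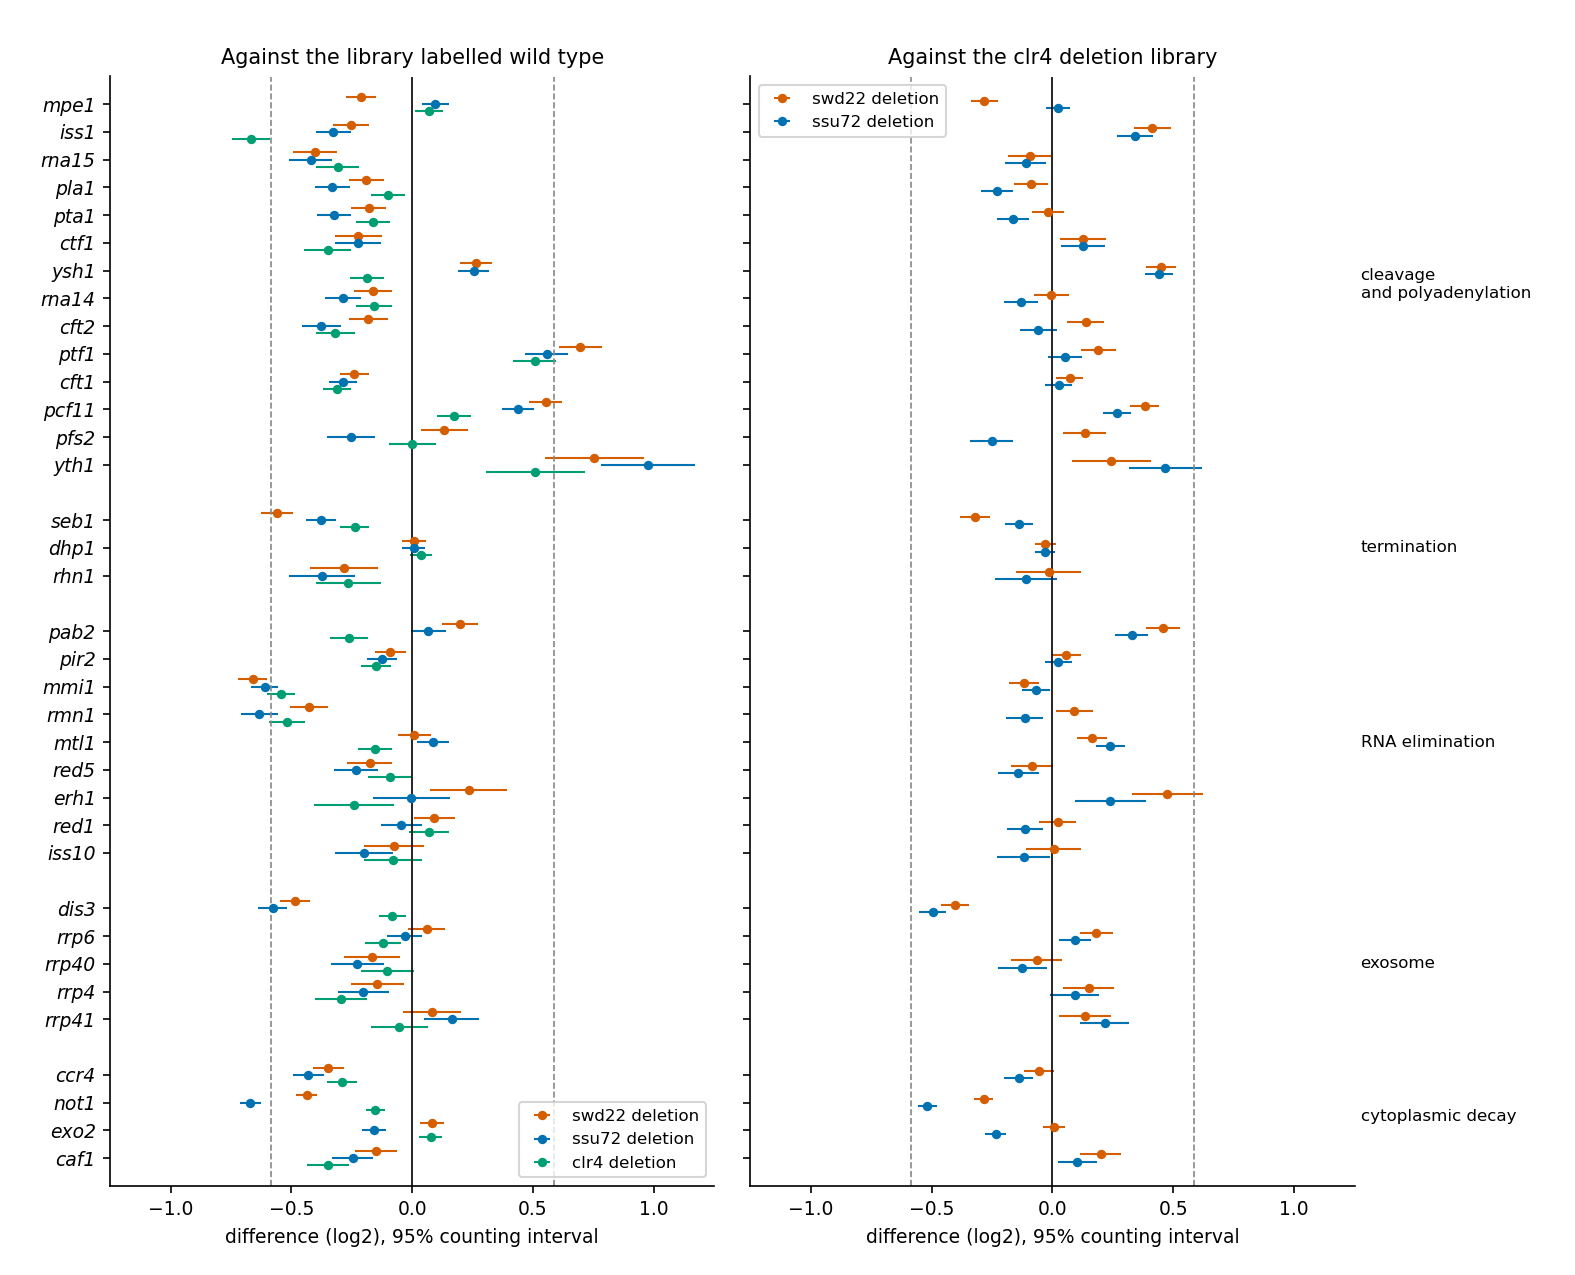
Log2 differences of the 35 genes with 95% counting intervals, against the library labelled wild type (left, 3 deletions) and against the library labelled clr4 deletion (right, swd22 and ssu72). Dashed lines mark 1.5-fold. On the left yth1, ptf1, mmi1, rmn1, not1 and iss1 have points past a dashed line, and on the right none do.

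At pab2, the gene of the nuclear poly(A) binding protein that links poly(A) tails to the exosome, the largest differences lay in overlapping noncoding features. The gene itself (chromosome II, 1939371 to 1940829, minus strand) held 2415, 3556, 3975, 3012 and 2550 reads and lay at 0.20 (0.12 to 0.27) in swd22, 0.07 (-0.01 to 0.14) in ssu72 and -0.26 (-0.34 to -0.18) in clr4. Both CPF deletions were above the library labelled clr4 deletion, by 0.46 (0.39 to 0.53) and 0.33 (0.26 to 0.40). The noncoding feature SPNCRNA.1479 (chromosome II, 1940770 to 1942390) starts upstream on the same strand and overlaps the first 60 bases of pab2. It held 39 reads in the library labelled wild type, then 333 in swd22 deletion, 266 in ssu72 deletion, 77 in that labelled clr4 deletion and 54 in the reference.

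SPNCRNA.1479 was high in both CPF deletions and low in the other 3 libraries. Its differences from the library labelled wild type were 2.73 (2.25 to 3.25) in swd22 and 2.12 (1.63 to 2.64) in ssu72, against 0.40 (-0.17 to 0.996) in clr4, and from the library labelled clr4 deletion 2.33 (1.97 to 2.71) and 1.72 (1.35 to 2.10). The antisense feature of pab2 (chromosome II, 1940059 to 1941445, plus strand) overlaps the gene by 771 bases and held 73, 316, 564, 342 and 91 reads. It was high in all 3 deletions, at 1.75 (1.38 to 2.14), 2.30 (1.94 to 2.67) and 1.65 (1.28 to 2.03). SPNCRNA.1479 and the antisense feature lie on opposite strands over part of their length, and whether reads of one were counted for the other was not tested.

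**Figure D4:**
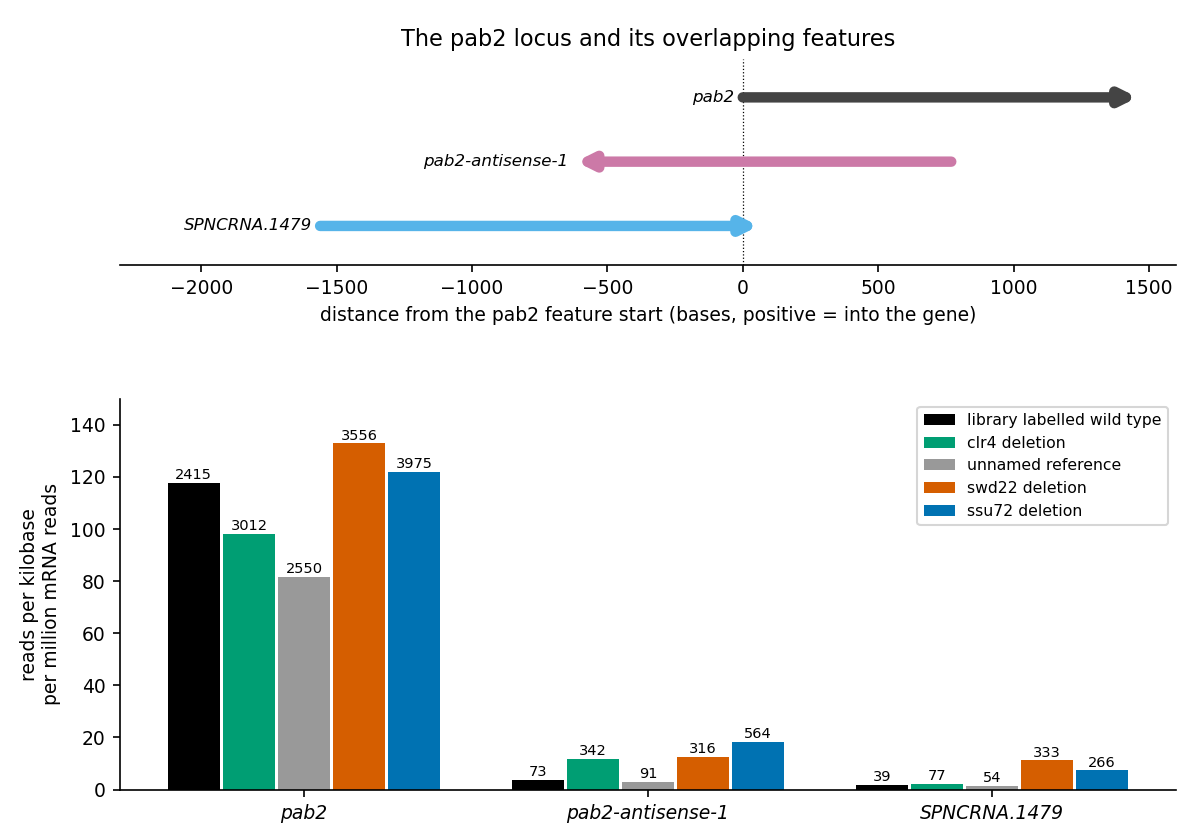
Top, the pab2 feature and the features that overlap it, drawn to scale by distance in bases from the pab2 start, with arrows for the direction of transcription. Bottom, the level of each in the 5 libraries, with bars starting at 0 and reads printed above them. SPNCRNA.1479 is high in the swd22 (333 reads) and ssu72 (266 reads) deletions, and the antisense feature is high in all 3 deletions.

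Of the exosome genes, dis3 (SPBC26H8.10, chromosome II, 3970898 to 3974218, plus strand), the catalytic subunit with exonuclease and endonuclease activity, stood out. It held 4441 reads in the library labelled wild type, then 4072 in swd22 deletion, 4673 in ssu72 deletion, 6270 in that labelled clr4 deletion and 7805 in the reference. Both CPF deletions were the lowest relative to depth and the library labelled clr4 deletion was near the library labelled wild type. The differences from the library labelled wild type were -0.49 (-0.55 to -0.42) in swd22, -0.58 (-0.64 to -0.52) in ssu72 and -0.08 (-0.14 to -0.03) in clr4. Against the library labelled clr4 deletion they were -0.40 (-0.46 to -0.35) and -0.50 (-0.55 to -0.44), and against the reference -0.73 and -0.82. In ssu72 it missed the 1.5-fold line of 0.585 by less than 0.01, and with libraries scaled by their mRNA reads it passed that line.

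A convergent gene, SPBC26H8.11c, overlaps the end of dis3 by 122 bases and held 4851, 4120, 2271, 1220 and 2684 reads. It was lowest in the library labelled clr4 deletion, at -2.57 (-2.66 to -2.48) from the library labelled wild type, where dis3 was not low. The 250 bases before dis3 are printed because it had the lowest values of the 35 against the reference in both CPF deletions. They come from ASM294v3 and hold none of the motifs searched, so that no base is in capitals.
dis3 (chrII:3970648-3970897, plus strand): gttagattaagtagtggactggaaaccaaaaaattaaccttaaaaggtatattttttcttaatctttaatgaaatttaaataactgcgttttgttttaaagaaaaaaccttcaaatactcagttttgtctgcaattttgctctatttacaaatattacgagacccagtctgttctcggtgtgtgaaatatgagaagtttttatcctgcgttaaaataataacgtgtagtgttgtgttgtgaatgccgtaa

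In the CPF deletions the other exosome genes differed less than dis3 from the library labelled wild type. The ring subunit gene rrp41 held 998, 1357, 1756, 1438 and 1813 reads and lay at 0.08 (-0.04 to 0.20) in swd22, 0.16 (0.05 to 0.28) in ssu72 and -0.05 (-0.17 to 0.07) in clr4. The cap subunit genes rrp4 (1241, 1442, 1694, 1512 and 2262 reads) and rrp40 (1158, 1325, 1554, 1612 and 1602 reads) lay between -0.29 and -0.10 in the 3 deletions. Both CPF deletions were also the lowest of the 5 libraries for rrp40, at -0.06 (-0.17 to 0.04) in swd22 and -0.12 (-0.23 to -0.02) in ssu72 from the library labelled clr4 deletion, while rrp4 lay at 0.15 and 0.09 and rrp41 at 0.13 and 0.22 from it. The nuclear exonuclease gene rrp6 held 2522, 3375, 3879, 3462 and 5861 reads and was level across the 4 strains, within -0.12 and 0.06 of the library labelled wild type. Against the reference it was lower in all 4, at -0.65, -0.59, -0.68 and -0.77. Of the 5 exosome genes listed here, most were below the reference in every strain. In swd22, ssu72 and clr4 deletion 5 of 5 were, with medians of -0.44, -0.50 and -0.34. In the library labelled wild type 4 of 5 were, with a median of -0.29. The shares of all measured mRNA features below the reference were 44.8%, 50.9%, 50.8% and 48.2%. The 6 other exosome subunits described below are not in these counts, and their differences from the reference were not computed. Of these, rrp43, rrp45, rrp46 and csl4 held their most reads in the reference. The subunit gene mtr3 went the other way in swd22 deletion, with 2152 reads against 1634 in the reference, the deeper library.

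Of the cytoplasmic genes, not1 (SPAC20G8.06, chromosome I, 1403154 to 1409763, plus strand), which encodes the scaffold of CCR4-NOT, was lower in both CPF deletions. It held 8919, 8461, 8807, 11993 and 13124 reads. The ssu72 deletion was lowest, at -0.67 (-0.71 to -0.63), followed by swd22 at -0.44 (-0.48 to -0.39), and clr4 was nearer the library labelled wild type at -0.15 (-0.19 to -0.11). Relative to the library labelled clr4 deletion the differences were -0.28 (-0.33 to -0.24) and -0.52 (-0.56 to -0.48), and against the reference -0.42 and -0.66. No other mRNA feature overlaps not1.

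In both CPF deletions the deadenylase genes of the same complex differed less than not1 from the library labelled wild type. In the library labelled clr4 deletion they differed more than not1, which lay at -0.15. The caf1 gene held 1949, 2256, 2581, 2286 and 2475 reads and was lowest in the library labelled clr4 deletion, at -0.35 (-0.44 to -0.26). The ccr4 gene held 3806, 3845, 4439, 4655 and 4354 reads and lay at -0.35, -0.43 and -0.29, with the library labelled wild type the highest of the 5. With the library labelled clr4 deletion as control, caf1 lay at 0.20 (0.11 to 0.28) in swd22 and 0.10 (0.02 to 0.18) in ssu72, and ccr4 lay at -0.06 and -0.14 (-0.20 to -0.08). The 5′ exonuclease gene exo2 held 5602, 7618, 7889, 8829 and 7717 reads and lay at 0.08 (0.03 to 0.13) in swd22, -0.16 (-0.21 to -0.11) in ssu72 and 0.08 (0.03 to 0.13) in clr4. It separated ssu72 from swd22 at -0.24 (-0.29 to -0.19), and lay at 0.01 and -0.23 from the library labelled clr4 deletion.

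Taken over 5 libraries, both CPF deletions lay below the other 3 for 8 of the 35 genes (22.9%, against 15.8% of measured mRNA features) and above them for 5 (14.3%, against 21.2%). This way of sorting was chosen after the values were seen. By the smallest gap between the sides on the log2 scale, dis3 (-0.40) and not1 (-0.28) led those below, and pcf11 (0.27), ysh1 (0.25) and yth1 (0.24) led those above. The gap was 0.07 for pab2 and 0.05 for ptf1, and at most 0.1 in size for the other 6 that lay below (rna15, pla1, mmi1, rrp40, rhn1 and rna14).

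Against the reference library some counts past 1.5-fold were larger than against the library labelled wild type, and the background was larger too. In swd22 deletion 4 genes were higher (pcf11, ptf1, erh1 and pab2), against 18.4% of features, and 3 lower (rna15, rrp6 and dis3), against 9.05%. In ssu72 deletion yth1 was higher, against 16.6%, and 4 were lower (rna15, rrp6, dis3 and not1), against 10.8%. In the library labelled clr4 deletion none was higher, against 14.9%, and 4 were lower (iss1, rna15, rrp6 and rrp4), against 8.66%. In the library labelled wild type none was higher, against 12.1%, and rrp6 was lower, against 9.16%. These comparisons share the reference, and its strain and growth are not known.

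Noncoding and antisense features overlap 8 of the 35 genes, 9 features in all. At least 1.5-fold above the library labelled wild type were 4 of them in swd22 deletion (39.0% of all measured antisense and noncoding features), 5 in ssu72 deletion (43.4%) and 3 in the library labelled clr4 deletion (40.6%). Lower by that much were 2 (12.9%), 0 (10.4%) and 1 (10.1%). Beside those of pab2, the antisense feature SPBC646.03-antisense-1 at the start of pla1 held 116, 289, 441, 204 and 165 reads and lay at 0.96 (0.64 to 1.28), 1.27 (0.98 to 1.58) and 0.23 (-0.10 to 0.58). It was highest in both CPF deletions.

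Of the 35 genes 16 overlap another mRNA feature, and some of these neighbours, named after their values were seen, differed far more than the members. The convergent gene ngl1 overlaps cft2 by 37 bases and held 652, 560, 150, 733 and 733 reads, at -2.77 (-3.04 to -2.51) in ssu72 deletion against -0.58 (-0.75 to -0.42) in swd22. It was low in the ssu72 library alone among the 5, while cft2 held 2279, 2582, 2756, 2732 and 3554 reads there. For 11 genes the next feature on the same strand begins within 500 bases of the gene's end or overlaps it. These features had medians of 0.27, 0.18 and 0.05 in the swd22, ssu72 and clr4 deletions. The 34 measured next features at any distance had medians of 0.01, -0.06 and -0.09, and all mRNA features 0.03, -0.02 and -0.03. Past 1.5-fold among the 11, a fold that 14.2% of all mRNA features passed upward in swd22, were ppk27 after rhn1 (0.70) and dad4 after ctf1 (0.65) in swd22 deletion. A threonine transfer RNA gene after rrp41, whose near-identical copies can share reads, was lower (-0.64 in ssu72 and -0.71 in clr4). Lower by that fold in ssu72 and clr4 were 8.3% and 3.62% of mRNA features, and 10.4% and 10.1% of antisense and noncoding features.

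The 250-base windows before the genes were searched on both strands for 5 motifs. TATAAA was in 13 of 35 (45.4% of all 5123 windows), AATAAA in 19 (62.5%), ACGCGT in 2, cft1 and rrp4 (2.36%), and CAGTCACA (1.66%) and TGACGT (4.57%) in none. A match is a description of the letters only.

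Lists of other genes of these pathways were read beside the 35, 6 lists with 46 genes in use. Past 1.5-fold against the library labelled wild type were 0 higher and 2 lower in swd22 deletion, 1 and 2 in ssu72 deletion and none in the library labelled clr4 deletion. Over all measured mRNA features the shares higher and lower were 14.2% and 5.82%, 13.0% and 8.3%, and 10.6% and 3.62%. The medians of the 46 were -0.05, -0.08 and -0.12. The only ones past 2-fold were the deleted genes swd22 and ssu72 themselves. In each CPF deletion the other 3 genes of the phosphatase module list (swd22, ssu72, dis2 and ppn1) were not past 1.5-fold. The CCR4-NOT subunit gene rcd1 was lower in both, at -0.75 (-0.86 to -0.63) and -0.63 (-0.74 to -0.52), with 1379, 1056, 1398, 1597 and 1404 reads. It was also lower in the library labelled clr4 deletion, at -0.37 (-0.47 to -0.26). Against that library rcd1 lay at -0.38 in swd22 and -0.26 in ssu72, short of 1.5-fold. Among decapping and decay genes lsm4 was higher in ssu72 deletion, at 0.71 from the library labelled wild type, with 1133, 1831, 2911, 1734 and 1811 reads. None of 6 other exosome subunits, 5 exosome cofactors or 7 cap-binding and export genes passed 1.5-fold against the library labelled wild type. Against the library labelled clr4 deletion, the 6 exosome subunits had medians of 0.36 in swd22 and 0.32 in ssu72, while dis3 lay at -0.40 and -0.50. The 6 ranged from 0.01 to 0.49 in swd22 and from -0.21 to 0.48 in ssu72. From the library labelled wild type their medians were 0.08 in swd22, 0.0006 in ssu72 and -0.27 in clr4. The gene cbc1, of the cap-binding complex, was lower in ssu72 at -0.68 from the library labelled clr4 deletion.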

How the data were processed

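Total RNA was made into libraries with ScriptSeq v2, a kit that keeps the strand, and sequenced on a NextSeq 500, per the labels' protocols. The submitters' processing notes name Trimmomatic and STAR without versions. Not given in the sources used here are the build, the counting program and the strand setting. The columns of the 4 files are, per the file headers, a fold change (log2) and its p-value, over 7015 features. Each deposited log2 value sets the file's own library against 1 further library, the same in every file and without a name. Each deposited p-value rests on the reads of those libraries alone and carries no spread between cultures, so none served as a test.

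Whole read numbers were recovered from ratio and p-value together under the random sampling model for 2 libraries, for 6565 features and for all 35 genes here. A further 88 were solved from the ratios alone, and 362 had a ratio of 0 in every file. Of the low estimates, 100% lay within 0.05 of a whole number. The recovery was tested on simulated data made with the same model, which checks the solving and not the model. Differences are log2 ratios of the recovered reads on the deposited scale, with 0 reads set to 0.5. A feature was measured with at least 10 reads in the higher library. Intervals (95%) are exact, by Clopper-Pearson, from the reads of both libraries. Groups come from the genotype label.

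Members and lists were chosen with earlier results of these data known. Named in full were members past 1.5-fold in a deletion library against the library labelled wild type or clr4 deletion, the highest and lowest of each role in each deletion, and those of opposite sign in swd22 and ssu72 deletion. Others named were chosen after their values were seen. The 6 context lists held 50 genes, of which ski8, nmt2 and red2 were not matched and pat1 was left out, since that name in the files belongs to a kinase. Sequences and repeats come from the RefSeq assembly ASM294v3. The coding span of 35 of 35 members, and of 99.5% of 4436 matched genes, lies inside the deposited feature. Alternatives changed the scaling, the read minimum (50), the fold (2), the control library and the members. Python 3.11.15, numpy 2.4.6, pandas 2.3.3 and scipy 1.17.1 were used.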

Additional observations from a re-analysis of the deposited data

How the results depend on the processing

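No paired analysis was possible because each genotype had 1 library and the labels carry no replicate numbers, so that no library could be left out of a group either. With the reference as control in place of the library labelled wild type, swd22 deletion had 4 members higher and 3 lower past 1.5-fold (2 and 1 as reported) and a median of -0.0636 (-0.16), ssu72 deletion had a median of -0.125 (-0.23), and clr4 deletion had 4 lower (1) and a median of -0.0474 (-0.15). With the library labelled clr4 deletion as control, swd22 deletion had 0 higher and 0 lower and its median turned to 0.0575, and ssu72 deletion had 0 higher (1), 0 lower (3) and a median of -0.0594. The cause was not tested. At 2-fold every count against the library labelled wild type was 0. Centred on the median of all mRNA features, swd22 deletion had 2 members lower, by its construction a shift of 0.03. In alternatives chosen after seeing the data, swd22 deletion had 1 higher without ptf1. Over the 19 members that overlap no other mRNA feature, swd22 deletion had 1 higher, ssu72 deletion 0 higher and 2 lower (3), and clr4 deletion 0 lower. Scaled by mRNA reads, ssu72 deletion had 4 lower (3), with dis3 added, and the other counts stayed. A minimum of 50 reads and the deposited ratios without recovered reads changed no count. Between ssu72 and swd22 deletion the counts stayed at 0 in every alternative. Of 80 differences of named genes, 76 moved by less than their counting interval when centred, and of 40 set against that labelled clr4 deletion, 32 moved by more, as did 47 of 60 set against the reference. Depth limits little here, since every member held at least 288 reads, while the missing replicates leave the spread between cultures unknown.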
